A study of Mus musculus with 6 samples.

Results

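The 10 genes described here code for receptors that bind apoptotic cells (Mertk, Axl, Tyro3, Timd4 and Itgav), for secreted bridging molecules that link a dying cell to those receptors (Gas6, Pros1 and Mfge8) and for a pair of proteins that drive engulfment inside the phagocyte (Elmo1 and Dock1). They were chosen by name from the 32879 gene symbols with a transcript record, and all 10 were present. Their RNA was measured in cell-sorted peritoneal macrophages (PMs) from 3 diseased-BWF1 mice and 3 control mice, with 1 library per mouse. Diseased-BWF1 mice are F1 animals of New Zealand black and New Zealand white parents, a strain that develops a spontaneous lupus-like disease. The 3 used for sequencing were 31, 31 and 34 weeks old. Control mice were F1 animals of New Zealand white and BALB/c parents, do not develop the disease, and were 33, 33 and 30 weeks old. All mice in the study were female, and the diseased animals were taken after autoantibodies and proteinuria had appeared. The groups share the New Zealand white parent and differ in the other one, so strain and disease cannot be told apart in any value given here.

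Clearance of apoptotic cells, or efferocytosis, begins when a dying cell exposes phosphatidylserine on its surface. Tim-4, the product of Timd4, binds phosphatidylserine directly and tethers the cell, whereas the TAM receptor kinases Mertk, Axl and Tyro3 reach it through Gas6 or protein S (Pros1), and integrins that contain the alpha v chain (Itgav) reach it through Mfge8. The Elmo1 and Dock1 proteins then form an exchange factor for the small GTPase Rac1, which reshapes the actin cytoskeleton around the cell that is taken up. Resident PMs are known for high Tim-4 and Mertk, and mice that lack Mertk, Tim-4 or Mfge8 develop autoantibodies.

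Total estimated counts lay between 3629901 and 5003360 per library, of which 89.1% to 93.0% fell on genes. A count of 3, taken as the limit of detection, corresponded to 0.652 to 0.911 CPM (counts scaled to the library's total on tested genes with TMM factors). This limit covers counting error only. The sorted cells carried the transcripts of large PMs. Gata6, the transcription factor of these cells, lay between 68.5 and 119.7 CPM and Adgre1 (F4/80) between 1846 and 2265 CPM. The 7 markers of large PMs summed to 10180 to 11780 CPM in control and 11290 to 11570 CPM in diseased-BWF1 mice. Most of this sum came from Itgam (CD11b) and Adgre1. The cells were sorted on these 2 markers, so the sum was largely set by the sort. Markers of B cells, T cells, neutrophils, mast cells, eosinophils, mesothelial cells and red blood cells each summed to at most 9.42 CPM in any library, and Ly6g and Retnlg of neutrophils were at 0 in all of them. A list of 10 markers of small PMs, monocytes and dendritic cells summed to 1250 to 1906 CPM in control and 393 to 1295 CPM in diseased-BWF1 mice, with most of the sum from Mrc1 and Retnla. Mrc1, the mannose receptor CD206, fell, with 582.1 to 593.0 CPM in control and 221.4 to 342.5 CPM in diseased-BWF1 mice (log2 fold change -1.08, edgeR adjusted p = 0.044). Irf4 and Ccr2 of the same list had higher means in diseased-BWF1 mice and overlapped between the groups (1.32 and 1.43, edgeR adjusted p = 0.314 and 0.441). H2-Aa varied between mice, with 148.1, 20.4 and 14.6 CPM in control and 137.5, 30.9 and 18.5 CPM in diseased-BWF1 mice. So did Retnla, with 486.5, 1276 and 817.8 CPM against 812.9, 111.7 and 13.7 CPM. Zbtb46 and Flt3 reached at most 11.75 and 3.65 CPM, and H2-Aa, Retnla, Zbtb46 and Flt3 all overlapped between the groups. Ly6c2, Itgax and Cd226 were at or below 0.543 CPM in all 6 libraries. The list's part in the values below was not tested. In bulk samples, fewer cells that make a transcript and less of it per cell cannot be told apart.

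The levels of the 10 genes differed widely among themselves. To compare genes with each other, CPM were divided by the length of each gene's merged exons in kilobases. On this scale Timd4 stood first with 481.6 ± 115 CPM per kilobase (mean and SD over the 6 libraries) and lay above 99.0% of the genes tested. Pros1 followed with 230.8 ± 35.7, Mertk with 71.2 ± 30.3 and Axl with 42.2 ± 30.9 CPM per kilobase. A middle group was formed by Mfge8 with 16.7 ± 6.24, Dock1 with 14.3 ± 2.31, Itgav with 10.5 ± 2.13 and Elmo1 with 7.12 ± 1.61 CPM per kilobase. Gas6 reached 1.62 ± 1.29 CPM per kilobase, above only 8.86% of the genes tested. Tyro3 was close to absent, with 0.029 ± 0.032 CPM per kilobase. The ranges over the 6 libraries did not overlap between Timd4 and Pros1, between Pros1 and Mertk, or between Elmo1 and Gas6. All other neighbours in this order had overlapping ranges, although Dock1 exceeded Itgav, and Itgav exceeded Elmo1, within each of the 6 libraries. PMs therefore held far more RNA for protein S than for Gas6, and more for Mertk and Axl than for Tyro3, in both groups.

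**Figure D1:**
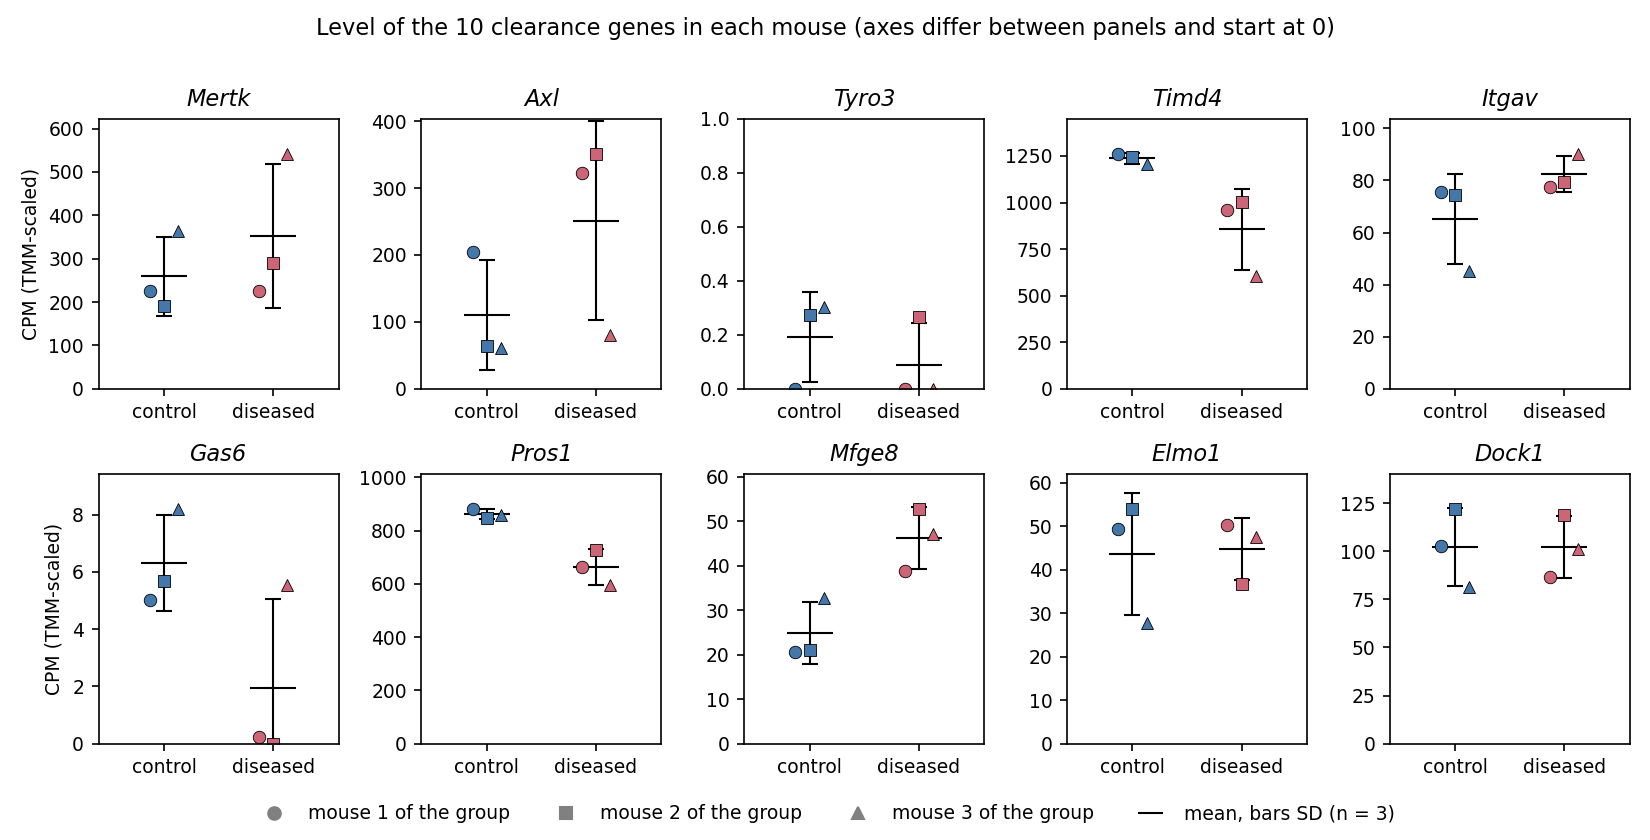
CPM of each of the 10 genes in the 3 control mice (blue) and the 3 diseased-BWF1 mice (red), one panel per gene with its own axis from 0, where horizontal lines are means and bars are SD (n = 3), ending at 0 where they would pass below it. Timd4 and Pros1 were lower and Mfge8 and Itgav higher in all 3 diseased-BWF1 mice than in any control mouse, and Axl was high in control 1 and in diseased-BWF1 1 and 2.

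The comparison of diseased-BWF1 with control mice asked whether disease was accompanied by other levels of the clearance genes. Of the 10 genes, 9 had enough counts to be tested and 0 of them passed edgeR's quasi-likelihood test at an adjusted p below 0.05 with at least a 1.5-fold difference. Over all 10505 genes tested, 1.22% passed the same rule (0.4% higher and 0.819% lower in diseased-BWF1 mice). At an unadjusted p below 0.05 there were 3 of the 9 genes (Mfge8, Pros1 and Timd4), or 33.3%, against 13.2% of all genes tested (5.62% higher and 7.57% lower). DESeq2 called 1 gene, Mfge8, where it called 3.54% of all genes (1.27% higher and 2.28% lower), and limma-voom called 0, with 0.866% of all genes. In 4 of the 9 genes the groups did not overlap, 2 being higher in all diseased-BWF1 mice (Mfge8 and Itgav, 9.44% of all genes tested) and 2 lower (Timd4 and Pros1, 11.4% of all genes tested). These levels are summed over each gene's records, and on the curated record alone the counts of Itgav and Pros1 overlapped. The median log2 fold change of the 9 genes was 0.034, beside 0.0053 for all genes tested. Nothing in the labels ties a mouse of one group to a mouse of the other, and p-values measure the spread between these mice.

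**Figure D2:**
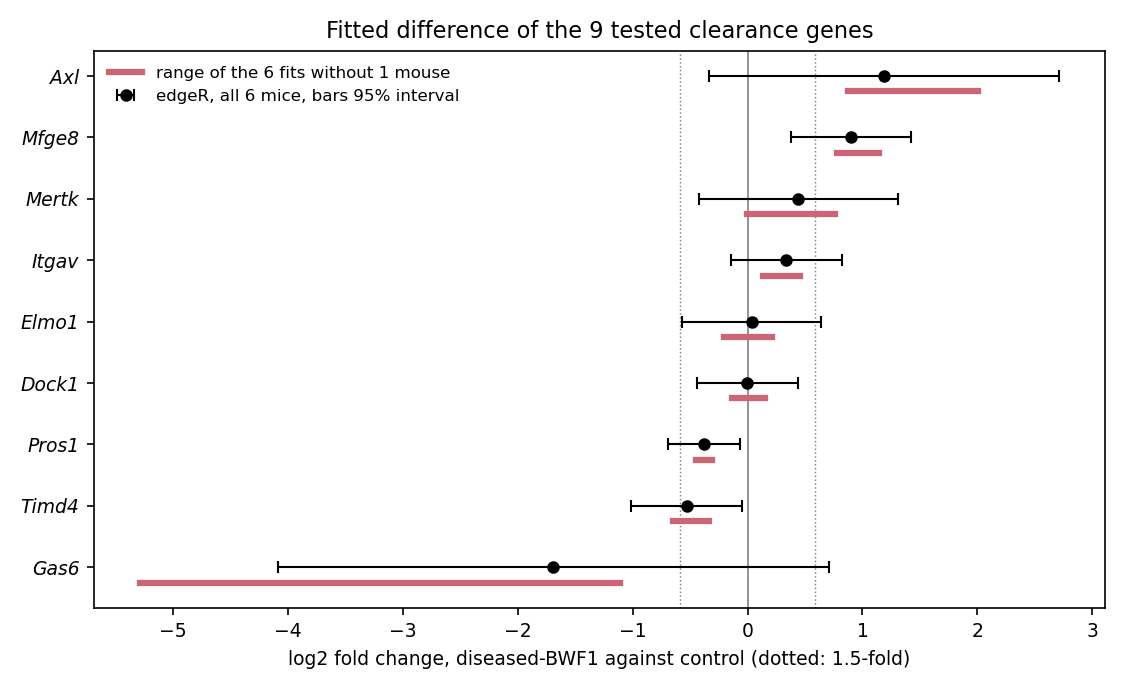
Fitted log2 fold change of the 9 tested genes in diseased-BWF1 against control mice (edgeR, points, with 95% intervals as bars), with the range of the 6 fits that each leave out 1 mouse as a red line and dotted lines at a 1.5-fold difference. The intervals of Mfge8 (above 0), Timd4 and Pros1 (both below 0) do not include 0, and none of the 9 genes passed after adjustment over all genes.

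Mertk, the TAM receptor that mediates much of the uptake by resident macrophages, had 224.4, 191.6 and 363.0 CPM in control 1, 2 and 3 and 225.7, 290.4 and 541.5 CPM in diseased-BWF1 1, 2 and 3. The groups overlapped, and control 3 and diseased-BWF1 3 were the highest of their groups. The fitted log2 fold change was 0.44 (SE 0.37, edgeR adjusted p = 0.67), with a 95% interval of -0.42 to 1.31. Without diseased-BWF1 3 it was -0.0089. Only 30.3% of Mertk's counts fell on the curated record, and 14.0% in control 3. Tested singly, the curated record gave a log2 fold change of 0.88 and the predicted one 0.26 (edgeR adjusted p over 20332 records = 0.989 and 0.9997). The gene (chr2:128698915-128803162, plus strand, GRCm38) overlaps Gm14011 on the other strand. All gene positions here are those of the RefSeq gene annotation, with the strand from GENCODE. The library kit kept strand, but the strand setting used for counting is not given in the sources used here.

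Axl (chr7:25756500-25788924, minus strand), a TAM receptor that binds Gas6 and is found on macrophages in inflamed tissue, had 205.1, 64.3 and 60.5 CPM in the control mice and 322.5, 351.0 and 80.1 CPM in the diseased-BWF1 mice. It was the most variable of the well-measured receptors. Control 1 and diseased-BWF1 1 and 2 held at least 205.1 CPM and the other 3 libraries at most 80.1 CPM, a split that cut across the groups. The fitted log2 fold change was 1.19 (SE 0.65, edgeR adjusted p = 0.498) and lay between 0.87 and 2.01 when single mice were left out. Only 0.513% of Axl's counts fell on curated records, the rest being on predicted transcript models of the gene. On 3 of these models tested singly the log2 fold change was 1.03, 0.86 and 1.41. Tyro3 (chr2:119797740-119818104, plus strand), the TAM receptor best known from the nervous system, had 0, 1 and 1 counts in control and 0, 1 and 0 counts in diseased-BWF1 mice, all below the limit of detection, and was not tested.

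Within the TAM family, Mertk made up 52.1%, 74.7% and 85.6% of the summed level per kilobase in control 1, 2 and 3, and 41.1%, 45.2% and 87.1% in diseased-BWF1 1, 2 and 3, and Axl made up nearly all of the remainder. The groups overlapped, and the share of Mertk differed by -13.1 percentage points between the means, and by -27.7 without diseased-BWF1 3, -22.4 without control 1, -4.72 without diseased-BWF1 1 and -1.498 on curated records (exact two-sided permutation test, p = 0.6, adjusted over the 3 receptors p = 0.6). The smallest p that this test can give with 3 mice against 3 is 0.1. The sum of the 3 receptors, looked at after the single values had been seen, was 100.1, 59.6 and 98.6 CPM per kilobase in control mice and 127.8, 149.5 and 144.6 CPM per kilobase in diseased-BWF1 mice. All 3 diseased-BWF1 mice were above all control mice, 1.63-fold between the means (exact two-sided permutation test, p = 0.1). On curated records alone, where Axl was nearly lost, the sums were 18.0, 15.3 and 11.7 against 13.5, 23.3 and 46.4 CPM per kilobase and the groups overlapped.

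**Figure D3:**
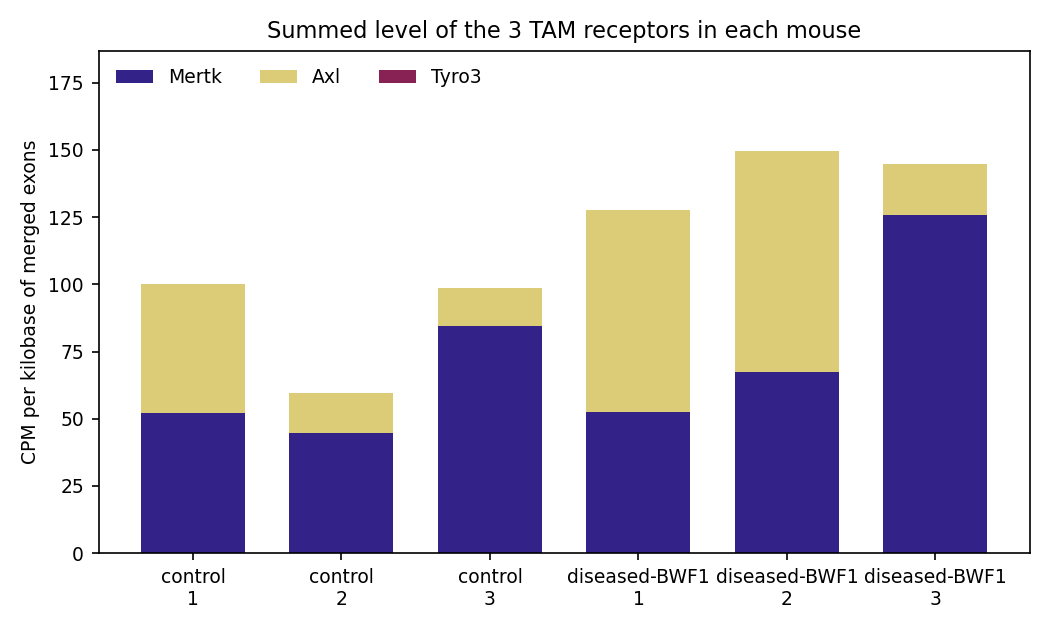
Level of Mertk, Axl and Tyro3 stacked for each mouse, in CPM per kilobase of merged exons, with control mice on the left and diseased-BWF1 mice on the right. The stacks reach 59.6 to 100.1 in control and 127.8 to 149.5 in diseased-BWF1 mice, Axl takes 12.9% of the stack in diseased-BWF1 3 and 58.9% in diseased-BWF1 1, and Tyro3 is too small to be seen.

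Timd4 (chr11:46810786-46844333, plus strand) codes for Tim-4, the phosphatidylserine receptor that marks resident PMs. It had 1261, 1244 and 1206 CPM in the control mice and 961.1, 1002 and 605.1 CPM in the diseased-BWF1 mice. The control mice lay close together and every diseased-BWF1 mouse was below them, with diseased-BWF1 3 the lowest. The mean of diseased-BWF1 mice was 0.692 of that of control mice, and the log2 fold change was -0.53 (SE 0.21, edgeR adjusted p = 0.334, 95% interval -1.02 to -0.046). It stayed between -0.65 and -0.33 when single mice were left out. Curated records held 81.7% of the counts. Icam2, another gene of large PMs, had 346.6 to 429.1 CPM in control and 232.5 to 315.7 CPM in diseased-BWF1 mice (-0.55, edgeR adjusted p = 0.198). Of the 7 large PM markers, Adgre1 was also lower in all diseased-BWF1 mice (-0.17, edgeR adjusted p = 0.630). The groups overlapped in Gata6 and Selp (-0.038 and -0.18, edgeR adjusted p = 0.966 and 0.771). They also overlapped in Csf1r, Rarb and Itgam, with higher fitted values (0.41, 0.28 and 0.13, edgeR adjusted p = 0.663, 0.758 and 0.783).

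Itgav (chr2:83722303-83806917, plus strand), the alpha v integrin chain, had 75.7, 74.4 and 45.3 CPM in the control mice and 77.5, 79.5 and 90.2 CPM in the diseased-BWF1 mice. The groups did not overlap, but control 1 and diseased-BWF1 1 lay side by side and much of the difference between the means came from the low value of control 3. The log2 fold change was 0.34 (SE 0.21, edgeR adjusted p = 0.544). The curated record held 328, 251 and 123 counts in control and 267, 194 and 318 in diseased-BWF1 mice, which overlap. Its log2 fold change was 0.19, and that of a predicted record 1.28 (edgeR adjusted p over 20332 records = 0.9997 and 0.954). Of the 75-base stretches of Itgav transcripts, 5.14% also occur in Gm13684, so that a small part of its counts could belong to that gene. Its beta chain partners are described with the other receptors.

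Gas6 (chr8:13465374-13494535, minus strand), the ligand shared by the TAM receptors, was rare. The 3 control libraries held 23, 21 and 27 counts of it, the 3 diseased-BWF1 libraries 1, 0 and 21. Diseased-BWF1 1 and 2 were below the limit of detection and diseased-BWF1 3 was level with the control mice, so the groups overlapped in counts, and in CPM (5.002, 5.70 and 8.20 against 0.25, 0 and 5.54). The log2 fold change was -1.69 (SE 1.02, edgeR adjusted p = 0.541). Without diseased-BWF1 3 it was -5.29, where a single count stood in the whole diseased-BWF1 group, and the smallest difference in the fits that left out a mouse was -1.11.

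Pros1 (chr16:62854307-62929346, plus strand), which codes for protein S, the anticoagulant plasma protein that also activates Mertk and Tyro3, was the second most abundant of the 10 genes per kilobase. It had 881.9, 847.5 and 857.0 CPM in the control mice and 664.4, 728.9 and 594.0 CPM in the diseased-BWF1 mice. The control mice lay close together and all diseased-BWF1 mice lay below them. The diseased-BWF1 mean was 0.768 of the control mean. The log2 fold change was -0.38 (SE 0.13, edgeR adjusted p = 0.284), and in DESeq2 the adjusted p was 0.0875. The interval of -0.70 to -0.064 lies mostly inside a 1.5-fold difference. In control 3, 73.0% of the counts fell on the curated record, against 97.4% to 100% in the other 5 libraries. This record held 4055, 3043 and 2059 counts in control and 2620, 2673 and 2253 in diseased-BWF1 mice, which overlap. On this record alone the log2 fold change was -0.25 (SE 0.17, edgeR adjusted p over 20332 records = 0.9997).

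Mfge8 (chr7:79133768-79149060, minus strand) codes for milk fat globule EGF factor 8, a secreted protein whose discoidin domains bind phosphatidylserine and whose RGD motif binds alpha v integrins. It had 20.7, 21.2 and 32.8 CPM in the control mice and 38.7, 52.8 and 47.2 CPM in the diseased-BWF1 mice. The highest control mouse was below the lowest diseased-BWF1 mouse, and the means were 24.9 ± 6.87 and 46.3 ± 7.08 CPM (SD, n = 3). The log2 fold change was 0.90 (SE 0.22, edgeR adjusted p = 0.132, 95% interval 0.38 to 1.42), the smallest p of the 9 genes. It was between 0.78 and 1.14 when single mice were left out. With DESeq2 the adjusted p was 0.0313 and the gene was called, whereas with limma-voom it was 0.116. DESeq2 made more false calls than edgeR on simulated data, but these were drawn with the spread between mice that edgeR had fitted. The simulation therefore cannot tell whether the call of Mfge8 is false.

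Mfge8 has a pair of curated transcripts, and all of its counts fell on them. They code for proteins of 463 and 426 residues and differ by coding exon 4 of 10 (chr7:79143278-79143388, GRCm38, minus strand), which adds 111 bases, or 37 codons, to the longer form. This exon codes for the stretch rich in proline and threonine between the EGF-like and the discoidin domains, and it is shown because it is what tells the forms apart. Capitals mark the exon and lower case the 15 bases on each side of it.
Mfge8 longer form: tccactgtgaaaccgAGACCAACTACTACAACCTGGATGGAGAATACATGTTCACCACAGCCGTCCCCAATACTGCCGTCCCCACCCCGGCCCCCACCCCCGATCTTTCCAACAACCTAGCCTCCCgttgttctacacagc
Mfge8 shorter form: tccactgtgaaaccggttgttctacacagc

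The longer form held 100% (exact 95% interval 96.2% to 100%), 82.1% (71.7% to 89.8%) and 50% (40.2% to 59.8%) of Mfge8 counts in the control mice. In the diseased-BWF1 mice it held 88.4% (82.3% to 93.0%), 56.6% (49.4% to 63.6%) and 68.2% (60.8% to 74.9%). These intervals cover counting error only and not the uncertainty of assigning reads to forms that differ by a single exon. The values varied widely within each group and the groups overlapped, with means of 77.3 ± 25.3% and 71.0 ± 16.1% (SD, exact permutation test over n = 3 mice per group, p = 0.8). Both forms are thus present in PMs of either group. Tested singly over all records, the longer form had a log2 fold change of 0.82 (SE 0.20, edgeR adjusted p = 0.323) and the shorter form one of 1.08 (SE 1.57). Of 19 records of the 10 genes that had enough counts, 0 were called with edgeR and 2 had an unadjusted p below 0.05. The shares of all 20332 records tested that passed these rules are not given here, so the 2 cannot be set against a background.

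Summed over their records, the engulfment genes were level between the groups. Elmo1 (chr13:20090507-20608353, plus strand), the regulatory subunit of the Rac exchange factor, had 49.4, 54.0 and 27.6 CPM in the control mice and 50.2, 36.8 and 47.5 CPM in the diseased-BWF1 mice, with a log2 fold change of 0.034 (95% interval -0.57 to 0.64, edgeR adjusted p = 0.976). Dock1 (chr7:134670687-135173647, plus strand), the catalytic subunit, had 102.9, 122.1 and 81.4 CPM against 86.5, 118.9 and 101.0 CPM, and a log2 fold change of -0.0011 (95% interval -0.44 to 0.44, edgeR adjusted p = 0.999). The groups overlapped in both genes. For Dock1 the interval leaves no room for a 1.5-fold difference in either direction, whereas for Elmo1 a difference just above 1.5-fold upwards cannot be told from none. Dock1 overlaps Fam196a on the other strand, as Gas6 overlaps Tmem255b and Itgav overlaps Gm13684, and reads of such pairs are separated only if strand was used in counting. Only 18.3% of Elmo1 counts fell on curated records, and 2.62% of its 75-base stretches are shared with Gm32036. The records of Elmo1 differed when tested singly. A curated one gave a log2 fold change of 0.50 (SE 0.37) and predicted ones 0.66 (SE 0.47) and -1.58 (SE 1.38).

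The 250 bases before the start site were taken from RefSeq (GRCm38.p6) for the 3 genes with the smallest p, 1 higher and 2 lower in all diseased-BWF1 mice, so that their start regions can be compared. All 10 genes had such a window. A set of motifs was searched on both strands, and capitals mark the matches of any of them. The general promoter elements were the GC box with the letters GGGCGG, the CCAAT box with just those letters, and the TATA box with the letters TATAAA. The sites of factors active in macrophages were a GATA site with the letters AGATAA, a nuclear receptor half-site with the letters AGGTCA, a PU.1 site with the letters GAGGAAGT, an AP-1 site with the letters TGANTCA and an E-box with the letters CACGTG. The windows lie at chr7:79149061-79149310 on the minus strand for Mfge8, chr11:46810549-46810798 on the plus strand for Timd4 and chr16:62854057-62854306 on the plus strand for Pros1. The Timd4 window ends past the gene start given above (46810786), so the start site used for it lies downstream of that position.
Mfge8 upstream: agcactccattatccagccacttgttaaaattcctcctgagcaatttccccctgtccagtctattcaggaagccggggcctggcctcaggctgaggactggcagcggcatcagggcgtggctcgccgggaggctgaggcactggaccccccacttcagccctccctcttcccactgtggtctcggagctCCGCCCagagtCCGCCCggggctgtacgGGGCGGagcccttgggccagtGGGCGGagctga
Timd4 upstream: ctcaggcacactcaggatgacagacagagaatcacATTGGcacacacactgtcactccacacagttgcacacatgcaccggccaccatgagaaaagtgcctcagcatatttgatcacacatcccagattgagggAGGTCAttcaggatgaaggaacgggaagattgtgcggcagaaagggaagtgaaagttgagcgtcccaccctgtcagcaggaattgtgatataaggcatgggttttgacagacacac
Pros1 upstream: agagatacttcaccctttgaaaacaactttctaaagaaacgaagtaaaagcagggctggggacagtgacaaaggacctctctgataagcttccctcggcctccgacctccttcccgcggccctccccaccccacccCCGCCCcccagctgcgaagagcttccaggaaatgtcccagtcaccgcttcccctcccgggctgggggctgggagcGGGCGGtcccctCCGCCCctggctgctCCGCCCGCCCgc

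Mfge8 and Pros1 carried 4 and 5 GC boxes, which overlap at the end of the Pros1 window, and 65.2% and 64.4% of their bases were G or C. Timd4 had no GC box, 50% G or C, 1 CCAAT box and 1 nuclear receptor half-site. A GC box stood in the window of 8 of the 10 genes and in 32.7% of all 32851 windows, with Timd4 and Itgav the exceptions. The PU.1 site was found for Itgav (2.44% of all windows) and the TATA box for Elmo1 (12.4%). The nuclear receptor half-site and the CCAAT box were found for Timd4 alone of the 10 genes (14.0% and 33.8% of all windows). The GATA, AP-1 and E-box letters occurred in none of the 10 genes' windows, beside 9.99%, 6.75% and 6.02% of all windows. The median share of G and C over all windows was 52.4%. Such matches describe letters only.

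Other genes of the pathway were counted from 7 lists with 104 genes, of which 92 were tested. With edgeR 1 was called higher and 1 lower, or 2.17% of them, beside 1.22% of all genes tested. DESeq2 called 5 higher and 6 lower among the 92 genes, beside 3.54% of all genes. The groups did not overlap in 28 genes, 10 higher and 18 lower, or 30.4%, beside 20.8% of all genes tested. The median log2 fold change of the 92 genes was -0.070.

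Dnase2a, the lysosomal nuclease that digests the DNA of engulfed cells, fell. It had 107.9, 130.3 and 143.1 CPM in control mice and 56.2, 59.7 and 57.2 CPM in diseased-BWF1 mice, for a fitted log2 fold change of -1.14 (SE 0.14, edgeR adjusted p = 0.0192). Its diseased-BWF1 values were nearly the same in all mice and lay below every control mouse. Gpr132, a receptor for lysophosphatidylcholine and related lipids that draws macrophages to dying cells, rose. It had 3.04, 3.26 and 3.04 CPM in control mice and 12.5, 17.9 and 10.02 CPM in diseased-BWF1 mice, for a fitted log2 fold change of 2.10 (SE 0.30, edgeR adjusted p = 0.028). Both calls were lost with the replicate block, where the log2 fold changes were -1.13 and 2.07 (edgeR adjusted p = 0.0564 and 0.0649), and that of Gpr132 also with limma-voom (2.03, adjusted p = 0.0578). On curated records alone Dnase2a was at -1.13 (edgeR adjusted p = 0.0528). All of its counts fell on curated records in every library, so its own counts did not change in this setting. For Gpr132 all 14, 12 and 10 counts of the control mice fell on predicted records and all 50, 67 and 38 counts of the diseased-BWF1 mice on curated ones. Its fitted value there, 8.70 (edgeR adjusted p = 0.0541) and 8.14 with DESeq2 (adjusted p = 2.119e-07), is set against 0 counts and is no bound. The part of this split in the difference of the summed counts was not tested. Dnase2a was called in 2 of the 6 fits that left out a mouse, those without control 1 or control 3, and Gpr132 in 1 of 6, that without diseased-BWF1 3.

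Among 20 other uptake receptors tested, 0 were called with edgeR, and their median log2 fold change was -0.0083. At an unadjusted p below 0.05 there were 2 higher and 1 lower, beside 5.62% and 7.57% of all genes, and DESeq2 called 1, beside 3.54%, so the list was near the background. Trem2, a lipid receptor of macrophages, had 10.7, 17.6 and 22.2 CPM in control and 7.999, 4.53 and 8.17 CPM in diseased-BWF1 mice (log2 fold change -1.27, edgeR adjusted p = 0.169). Itgb5, a beta chain partner of Itgav, had 0.652, 2.17 and 2.43 CPM in control and 8.25, 4.0 and 50.9 CPM in diseased-BWF1 mice (3.62, edgeR adjusted p = 0.198), with the highest value in diseased-BWF1 3. Itgb5 was the receptor of this list that DESeq2 called (adjusted p = 0.00407). Itgb3, another beta chain that pairs with Itgav to bind Mfge8, overlapped between the groups (-0.10, edgeR adjusted p = 0.925). Cd14, a co-receptor for lipopolysaccharide that also binds apoptotic cells, had 296.6, 422.5 and 493.4 CPM against 576.7, 1063 and 585.0 CPM (0.88, edgeR adjusted p = 0.263).

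Among 12 other bridging molecules tested, 0 were called with edgeR, whereas DESeq2 called 2 higher and 4 lower (1.27% and 2.28% of all genes). The median log2 fold change of this list, -0.50, was the lowest of the 7 lists, and 7 of the 12 were lower in all diseased-BWF1 mice, beside 11.4% of all genes tested. Anxa5, which binds phosphatidylserine, had 119.6, 103.4 and 155.5 CPM in control and 68.0, 63.5 and 74.9 CPM in diseased-BWF1 mice (-0.87, edgeR adjusted p = 0.073). C1qa, a chain of the complement component that coats dying cells, had 3387, 3209 and 4167 CPM against 2326, 1849 and 1690 CPM (-0.88, edgeR adjusted p = 0.0857). The partner chains C1qb and C1qc were also lower in all diseased-BWF1 mice (-0.69 and -0.79, edgeR adjusted p = 0.229 and 0.0937). C3, the central complement protein, had 580.5, 359.3 and 327.5 CPM in control and 1043, 928.4 and 807.3 CPM in diseased-BWF1 mice (1.13, edgeR adjusted p = 0.0859). DESeq2 called Anxa5, C1qa, C1qc and C3 (adjusted p = 0.00237, 0.000183, 0.000412 and 0.000453) but not C1qb (adjusted p = 0.0545). Bridging molecules thus stood in both directions, with Mfge8 and C3 higher, and Pros1, Anxa5 and the C1q chains lower, in all diseased-BWF1 mice.

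Of 17 other engulfment genes, 0 were called with edgeR or DESeq2, beside 1.22% and 3.54% of all genes tested. At an unadjusted p below 0.05 there were 1 higher and 1 lower, beside 5.62% and 7.57% of all genes. Both were relatives of Dock1. Dock4 had 34.6, 35.5 and 21.3 CPM in control and 16.5, 16.3 and 20.3 CPM in diseased-BWF1 mice (-0.79, edgeR adjusted p = 0.198), and Dock5 had 248.6, 255.9 and 141.3 CPM against 318.0, 309.4 and 339.6 CPM (0.58, edgeR adjusted p = 0.339). Trio, another exchange factor, had 115.9, 114.5 and 73.2 CPM against 129.7, 141.6 and 134.7 CPM (0.42, edgeR adjusted p = 0.412). In Dock5 and Trio, as in Itgav, Elmo1 and Dock1, control 3 was the lowest of the 6 libraries.

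Of 20 genes of phagosome maturation, 1 was called with edgeR (Dnase2a, beside 1.22% of all genes), and 5 were lower and 0 higher in all diseased-BWF1 mice, beside 11.4% and 9.44% of all genes. Lamp1, an abundant lysosomal membrane protein, had 1923, 2006 and 2363 CPM in control and 1336, 1388 and 1606 CPM in diseased-BWF1 mice (-0.54, edgeR adjusted p = 0.185). Map1lc3b, which is attached to the membrane of maturing phagosomes, had 160.1, 164.7 and 236.7 CPM against 116.2, 132.8 and 136.6 CPM (-0.54, edgeR adjusted p = 0.259). Of 9 sensing and do-not-eat-me receptors tested, 1 was called with edgeR (Gpr132, beside 1.22% of all genes). Lilrb4a, an inhibitory receptor, had 494.1, 485.0 and 504.0 CPM in control and 299.7, 303.5 and 336.9 CPM in diseased-BWF1 mice (-0.66, edgeR adjusted p = 0.0604). Cd24a, a ligand that restrains phagocytes, had 15.4, 46.7 and 13.4 CPM against 48.2, 137.9 and 96.0 CPM (1.90, edgeR adjusted p = 0.191). DESeq2 called Gpr132 and Cd24a higher (adjusted p = 0.000252 and 0.011) and Lilrb4a lower (adjusted p = 8.06e-06). It called 1.27% of all genes higher and 2.28% lower.

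The lists for sterol response with cholesterol efflux (9 tested) and for receptor shedding (5 tested) held 0 calls with edgeR or DESeq2, 0 genes with an unadjusted p below 0.05 and 0 genes without overlap. Their smallest edgeR adjusted p were those of Ppard, a lipid-sensing nuclear receptor (-0.49, adjusted p = 0.480), and of Adam10, a sheddase (0.17, adjusted p = 0.753). Abcg1, a cholesterol exporter, and Apoe, an apolipoprotein, overlapped between the groups (0.46 and -0.41, edgeR adjusted p = 0.615 and 0.637). Adam17, which cleaves Mertk from the cell surface, and Adam9 did so too (-0.12 and -0.21, edgeR adjusted p = 0.805 and 0.767).

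**Figure D4:**
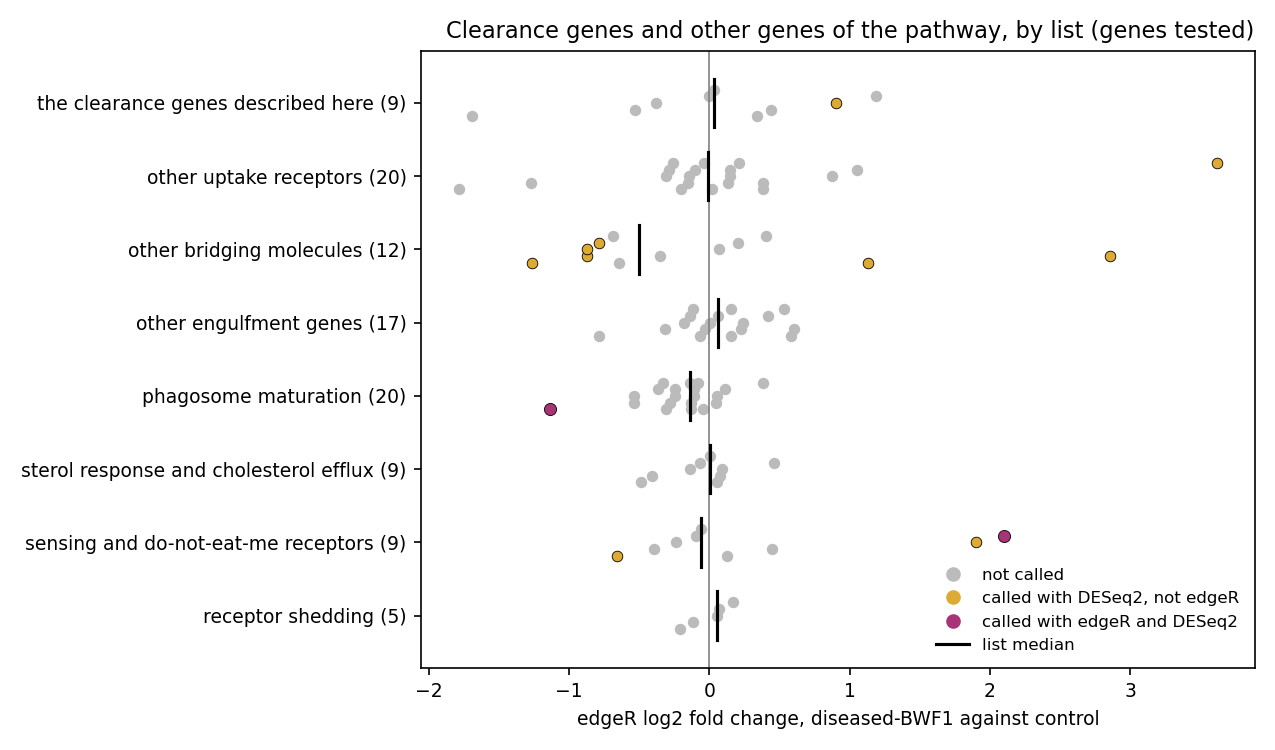
Log2 fold change (edgeR, diseased-BWF1 against control) of each tested gene by list, with the list's median as a black bar, genes called with DESeq2 but not edgeR in yellow, genes called with both in purple and genes not called in grey; the number of tested genes stands beside each list. Purple points are Dnase2a at -1.14 and Gpr132 at 2.10, and the list of other bridging molecules has its median at -0.50.

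The genes whose levels over the 6 libraries were most like those of Mfge8, Pros1 and Timd4 were found by Pearson's r of log2 CPM, given as a description. The 6 points of each share library and depth, and the group difference itself raises r. For Mfge8 they were Zfp383 (r = 0.996), Snhg8 (0.994) and Nudt3 (0.991). For Pros1 they were Fdx1 (0.996), Aldh7a1 (0.992) and Pigz (0.992). For Timd4 they were Tgif1 (0.992) and Rp1 (0.990). Aldh7a1 had 28.2 to 31.3 CPM in control and 10.6 to 18.4 CPM in diseased-BWF1 mice, and Rp1 had 38.5 to 43.3 CPM in control and 9.23 to 23.2 CPM in diseased-BWF1 mice, in both cases with diseased-BWF1 3 the lowest, as in Pros1 and Timd4. None of these 8 genes was called with edgeR (adjusted p from 0.0776 to 0.571).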

How the data were processed

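RNA from PMs sorted on F4/80 and CD11b was made into stranded mRNA libraries and sequenced as paired reads. The authors deposited estimated counts per RefSeq transcript record for each mouse, as whole numbers without normalization. The submitters' processing notes name Salmon 0.8.0, DESeq2 and GRCm38.p6, with no roles given. Records were matched to RefSeq genes and summed per symbol (86466 matched, 20727 without a gene were left out). Groups came from the sample titles. The test was edgeR 4.0.16 in R 4.3.3 (filterByExpr, TMM, glmQLFTest, no covariate), with Benjamini-Hochberg adjustment over 10505 genes, and calls needed an adjusted p below 0.05 with a difference of 1.5-fold or more. The code was tested on simulated data, drawn with the spread between mice and the library scaling that edgeR had fitted. There DESeq2 had a larger share of false calls than edgeR and also made calls when no gene differed. A setting taken from edgeR may favour edgeR. Single values also had an exact permutation test. Total counts were 3629901 to 5003360 per library, and 3 counts equal 0.652 to 0.911 CPM. Gene lengths, strands, exons and transcript sequences came from GENCODE (GRCm38), gene positions from RefSeq and upstream windows from RefSeq (GRCm38.p6).

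The members and lists were chosen with earlier results of these data known. Named genes were the 10 genes, every listed pathway gene called by edgeR, the 3 of lowest p in each pathway list, defining cell markers, and the 3 genes most correlated with each of the 3 tested genes of smallest p, of which 1 is not reported here. Itgb3, C1qb, C1qc and the genes in the closing observations were named after their values were seen. Replicate numbers recur in both groups on separate animals whose deviations correlated with r of 0.117, 0.0056 and 0.157, and the numbers were not taken as pairs. Alternatives were DESeq2 1.42.0, limma-voom (limma 3.58.1), other normalizations, other filters, age as a covariate, a replicate block, curated records alone, single records, calls without a fold threshold, and each mouse left out. Curated records with DESeq2 and the summed TAM level were chosen after seeing the data.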

Additional observations from a re-analysis of the deposited data

How the results depend on the processing

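Of the 10505 genes tested with edgeR, 128 were called (42 higher, 86 lower). This number was 372 with DESeq2, 259 with no low-count filter, 84 with at least 10 counts in every library, 19 on curated records alone, 270 on curated records with DESeq2 (chosen after seeing the data) and 21 to 51 when each mouse was left out. Pathway genes called numbered 11 with DESeq2, 1 with limma-voom, 5 with no filter, 0 on curated records, 8 on curated records with DESeq2 and 0 to 2 without single mice, against 2 in the report. Of the 10 genes themselves, 1 (Mfge8, log2 fold change 0.91) was called with DESeq2 and 0 in every other setting, including adjusted p alone with no fold threshold. With the replicate number as a block, 38 genes and 0 pathway genes were called. The numbers are not known to pair mice, each control mouse correlated best with its own number for replicates 1 and 3 and not for replicate 2, and the block changed no call of the 10 genes. Their median log2 fold change was 0.183 with at least 10 counts in every library, where Gas6 is not tested, and -0.138 to 0.213 without single mice. The Tyro3 share differed by 0 percentage points on curated records, a value fixed in advance because 0% of its counts fell on them. The cause of the other shifts was not tested.

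Directions were kept in every setting for Axl (not tested on curated records), Itgav, Gas6, Pros1 and Mfge8. Dock1 was at 0.0056 with DESeq2, 0.0064 with limma-voom, 0.0057 with RLE factors, 0.0054 with the block, 0.014 with age, 0.0027 on curated records, 0.010 on curated records with DESeq2, 0.0020 on its record and -0.138 to 0.150 without single mice. A predicted Timd4 record gave 0.019. A predicted Elmo1 record gave -1.58, another predicted one 0.66 and a curated one 0.50. Without single mice Elmo1 ranged from -0.20 to 0.21 and Mertk from -0.0089 to 0.76. On curated records Mertk was at 0.88 with edgeR and 0.90 with DESeq2, and Elmo1 at 0.51 and 0.52. The share of Mertk in the TAM sum differed by -27.7 to -4.72 percentage points without single mice. On curated records it differed by -1.498, but these hold only 0.513% of Axl's counts, so Mertk makes up nearly all of the sum there. Tyro3 could not be compared at this depth, and the wide interval of Gas6 reflects the spread between diseased-BWF1 mice.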

Other observations

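Some genes of the pathway lists outside the naming rule had large differences between mice, and were picked out after their values were seen. Thbs1, the secreted bridging protein thrombospondin 1, had 117.7, 213.3 and 609.1 CPM in control and 1797, 3571 and 1440 CPM in diseased-BWF1 mice, for a fitted log2 fold change of 2.86 (SE 0.65, edgeR adjusted p = 0.103, DESeq2 adjusted p = 0.0141). All 3 diseased-BWF1 mice were above all control mice. Edil3, a relative of Mfge8 that binds phosphatidylserine and integrins, had 33.9, 45.6 and 46.5 CPM in control and 14.2, 28.0 and 10.02 CPM in diseased-BWF1 mice, for a fitted log2 fold change of -1.27 (SE 0.36, edgeR adjusted p = 0.18, DESeq2 adjusted p = 0.0398). It was thus lower in all 3 diseased-BWF1 mice, whereas Mfge8 was higher in all of them. Stab1, the phosphatidylserine receptor stabilin 1, had 455.4, 650.2 and 1399 CPM in control and 78.5, 58.7 and 589.5 CPM in diseased-BWF1 mice (log2 fold change -1.78, SE 0.90, edgeR adjusted p = 0.465). Its groups overlapped only because diseased-BWF1 3 was above control 1.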
